A study of Mus musculus with 6 samples.

Results

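The proteasome subunit genes of naive CD4+ T cells were compared between the spleen and the mesenteric lymph nodes (mLN), the nodes that drain the gut. Members were all protein-coding mouse genes whose symbol starts with Psm, then a letter from a to g, then a number, without Psmb8 and Psmb9 and without pseudogenes. This gave 48 genes of the 55487 listed, 21974 of which are protein-coding, and left out 4 pseudogenes. One of the 48, Psmc3ip, matches by name only, since it encodes a partner of a subunit and not a subunit. RNA sequencing of polyadenylated RNA was done on 3 spleen libraries and 3 mLN libraries of wild-type (WT) C57BL6/J mice that received no treatment, so by their labels the 2 groups differ by tissue alone. The labels state neither the animals' age nor how the naive cells were sorted, and they do not say that libraries of a tissue came from separate mice. A p-value here thus reflects how much the libraries vary, and part of that may be technical.

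The proteasome is the cell's main protease for proteins tagged with ubiquitin. Its 20S core is a barrel of outer alpha rings and inner beta rings, and only the catalytic beta subunits cut peptides. The 19S regulatory particle caps the barrel: its base holds a ring of ATPases that unfold the substrate, and its lid removes the ubiquitin. Other caps, the activators, open the core without ubiquitin, and assembly factors build each part without staying in it. In lymphocytes, inducible beta subunits can replace the constitutive catalytic ones and shape the peptides shown on MHC class I.

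The libraries held between 13205499 and 20054205 expected counts, which are RSEM's estimates of reads per gene. A count of 3, used here as the floor of detection, equals 0.149 to 0.225 CPM (counts scaled by the library total times its TMM factor), and this covers counting error only. The proteasome members took 0.395% to 0.404% of all counts in the spleen libraries and 0.342% to 0.349% in the mLN libraries. Other large groups of genes also took a smaller share in mLN. Mitochondrial genes took 3.70% to 4.11% in spleen and 2.12% to 2.43% in mLN. The highest share of ribosomal protein genes was 10.2% in spleen and 7.51% in mLN, and the tissues did not overlap. Their part in the results was not tested. The summed level of 9 naive CD4+ T cell markers was 6068 to 6311 CPM in spleen and 5641 to 5764 CPM in mLN, so the labelled cell type was present in every library. Single markers differed in direction. By the test described below, 3 of the 9 were higher in mLN, among them Cd3e (log2 fold change 0.35), and 4 were lower, among them Cd3d (-0.51). Apart from the stromal list, markers of other cells were low but unequal between the tissues. The sum of 8 B cell markers was 31.4 to 35.5 CPM in spleen against 10.4 to 18.2 in mLN, with 5 of the 8 tested lower in mLN. For 10 macrophage and monocyte markers it was 35.9 to 38.8 against 3.19 to 4.60 CPM, with 5 of 6 tested lower. Over 6 neutrophil markers it was 25.6 to 32.2 against 0.150 to 0.842 CPM, with 4 of 4 tested lower and Ly6g at 0 in all libraries. The 6 dendritic cell markers summed to 4.79 to 9.68 against 0.750 to 1.10 CPM, the 4 NK cell markers to 1.62 to 3.46 against 0.900 to 1.72 CPM, and the 2 CD8 genes to 16.0 to 17.8 against 12.5 to 20.4 CPM. Erythroid markers reached no more than 0.675 CPM in sum, with Hbb-bt at 0. Of 6 stromal markers, Pdpn, Lyve1 and Ccl21a were at 0, and nearly all of the sum of 203 to 247 CPM was Pecam1. Only 1 stromal marker was tested, and it was lower in mLN (log2 fold change -0.22). The part of these other cells in the results below was not tested.

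Of the 48 members, 46 had enough counts to be tested. The 2 that did not are Psma8, an alpha subunit of the testis, with at most 2 counts in any library, and Psmb11, the catalytic subunit of the thymic cortex, at 0 in all of them. Of the 46 tested, 25 were lower in mLN and 2 were higher by edgeR's quasi-likelihood test at an adjusted p of 0.05, and 19 were not called. Over all 12486 genes tested the same rule called 13.5% lower and 16.1% higher in mLN. The median log2 fold change (mLN minus spleen) was -0.29 over the members and -0.012 over all genes tested. In 29 of the 46, every mLN library lay below every spleen library in CPM, an order that 20.3% of all tested genes had. Summed over the members, the spleen libraries gave 4035 ± 45.0 CPM and the mLN libraries 3414 ± 36.1 CPM (SD, n = 3 each), so mLN stood at 84.6% of spleen. In bulk RNA, fewer cells of a type and less RNA per cell cannot be told apart. Exons of Psmb7, Psmc3, Psmd1, Psmd3, Psmd9, Psmd13, Psma4, Psma5, Psme1 and Psmc3ip overlap a gene on the opposite strand, and those of Psmb5, Psmd1, Psme2b and Psmg3 a gene on the same strand, whose reads cannot be told apart by strand. The sources used here do not give the strand setting of the counting, so reads at the opposite-strand overlaps may be shared too.

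**Figure D1:**
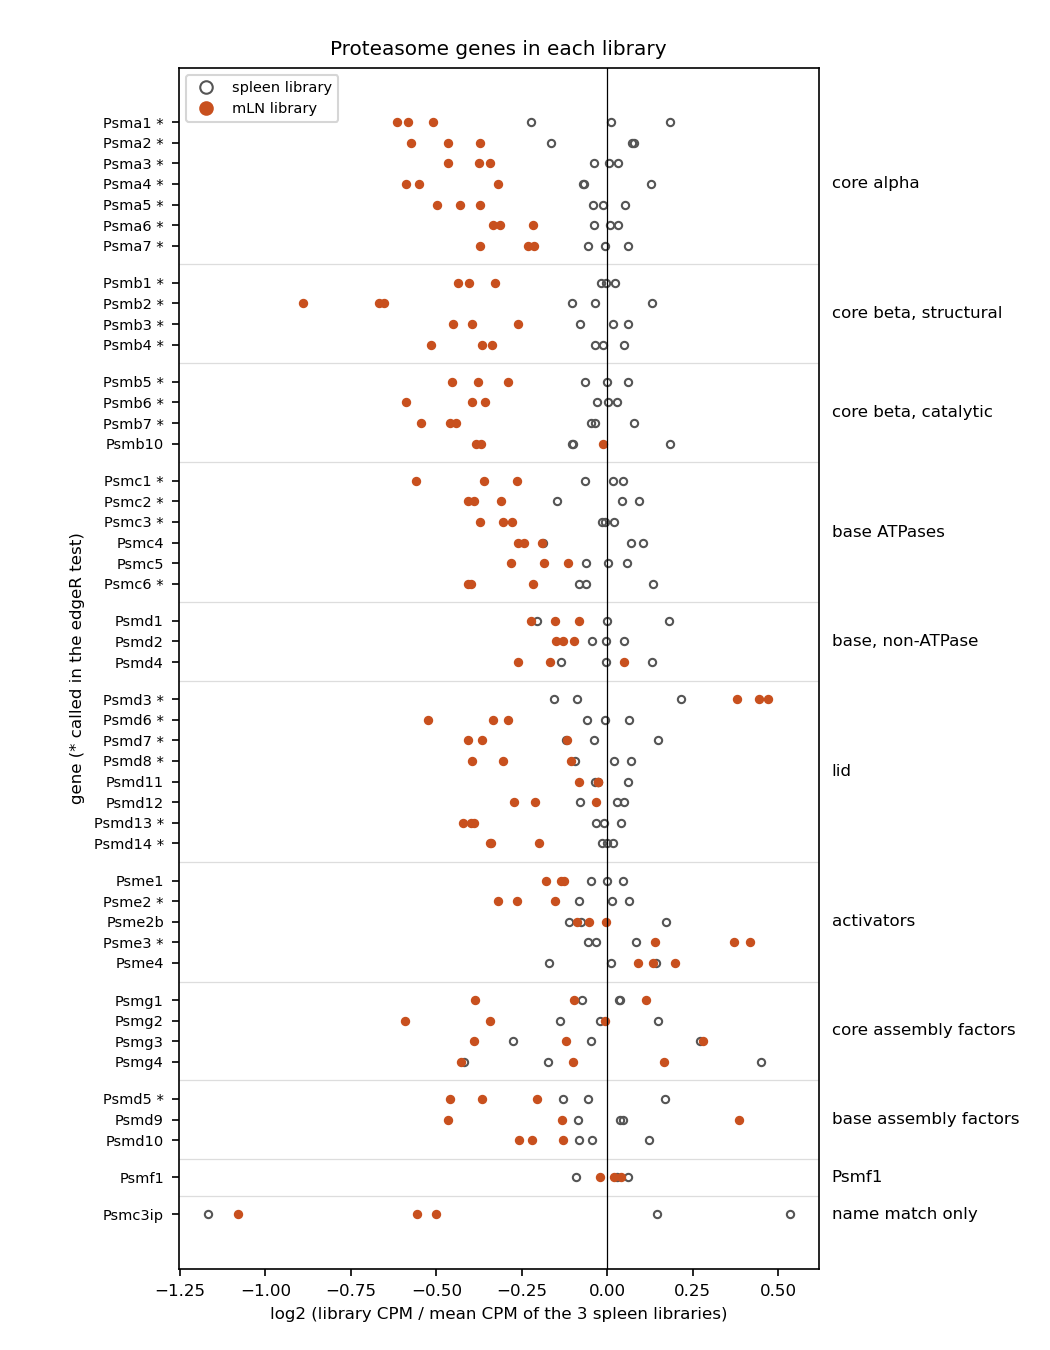
Each row is a tested proteasome gene, grouped by role, and each point is the log2 ratio of a library's CPM to the mean CPM of the 3 spleen libraries. Open circles are spleen libraries, filled circles are mLN libraries and an asterisk marks a gene called by edgeR. All core genes but Psmb10 have their mLN points to the left of every spleen point, while Psmd3 and Psme3 have them to the right.

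The size of this difference depended on how transcript length entered. The transcripts behind the counts were longer in the mLN libraries, with a count-weighted mean of 3151 to 3248 nt against 2845 to 2866 nt in spleen. Proteasome transcripts are short, with a median of 1257 nt over the 46 members and 2330 nt over all tested genes. Across the members, the log2 fold change had a Pearson correlation of 0.40 and a Spearman correlation of 0.27 with log10 transcript length (n = 46 genes, which share the same 6 libraries and are not independent replicates). When a smooth trend of log2 CPM on length was removed from each library, 11 members remained lower and the same 2 higher, against 8.94% and 14.6% of all genes tested. Their median was then -0.10, with 0.021 over all genes. The 11 were Psma1, Psma2, Psma4, Psma5, Psmb1, Psmb2, Psmb7, Psmc1, Psmc2, Psmd5 and Psmd13.

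**Figure D2:**
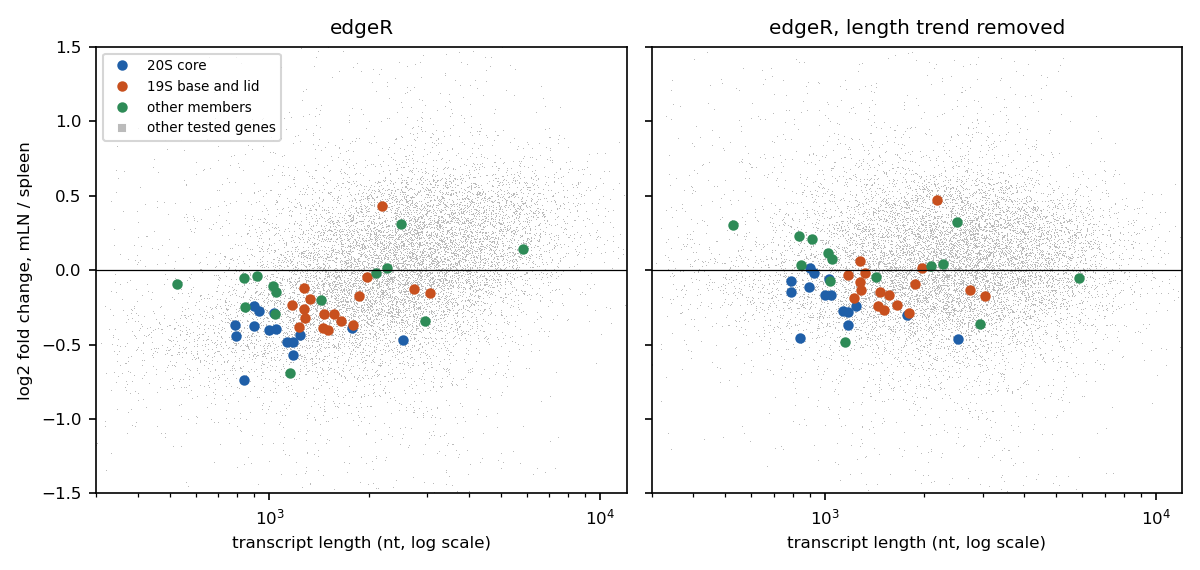
Log2 fold change (mLN over spleen) against transcript length in nt on a log scale, before (left) and after (right) a smooth length trend was removed from each library. Coloured points are proteasome genes and grey points are the other tested genes, of which 307 on the left and 310 on the right fall outside the axes. All 15 core genes lie below 0 on the left and most move closer to 0 on the right, and Psmb2, Psma1 and Psma2 stay among the lowest core genes.

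The deposited TPM values, which are scaled by length and to a fixed total per library, gave another picture of the sum. The spleen libraries summed to 4914 ± 42.6 TPM and the mLN libraries to 4996 ± 160 TPM (SD, n = 3 each), or 101.7% of spleen, and the tissues overlapped. With TPM on the log2(TPM + 1) scale and each library centred on its median, limma called 16 members lower and 1 higher, against 7.58% and 6.39% of all genes. Without centring it called 2 lower, Psmb2 and Psmd5, and 2 higher, Psmd3 and Psme3, against 3.08% and 22.1% of all genes. The uncentred scale places the median of all tested genes at 0.21, and the median of the members at -0.00055. The members' median was therefore below that of all genes on both scales, and the sign of single members on uncentred TPM depends on that shift. Removal of a trend on GC content instead of length gave 25 members lower and 3 higher, against 11.5% and 21.5% of all genes. Of the 25, 22 were lower in both fits. Psma6, Psmc6 and Psmd14 lost their call, Psmb10, Psmc4 and Psme1 became lower, and Psme4 became higher. Psmb2 and Psmd3 were called in the same direction in every alternative fit run.

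**Figure D3:**
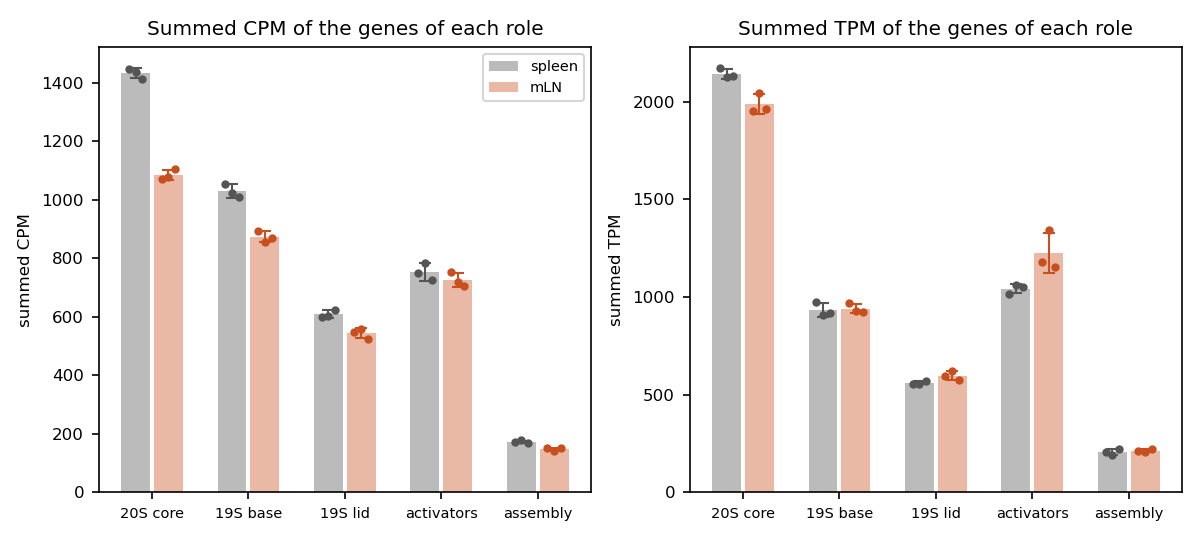
Bars give the mean summed CPM (left) and summed TPM (right) of the genes of each role in spleen (grey) and mLN (orange), error bars the SD over 3 libraries and points the libraries. The core goes from 1432 to 1085 CPM and from 2142 to 1987 TPM, while the activators are close in CPM and higher in mLN in TPM.

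Promoter windows were read because many of these genes are known to share a transcription factor, Nfe2l1, which acts when proteasome activity is short and binds antioxidant response elements. RefSeq (GRCm38.p6) gave a window for 40 of the 48 members, not for Psma8, Psmb1, Psmb2, Psmb7, Psmc3, Psmd3, Psmd7 or Psmg2. The 250 bases before each start were searched on both strands. The letters TGANNNNGC, the loose form of that element, were in 14 of the 40 windows (35.0%) and in 35.1% of the windows of 27025 genes. These 27025 are all genes with a window, tested here or not, so they are not matched to the members in expression. The stricter TGACNNNGC, whose matches are also matches of the loose form, was in 5 (12.5%) against 10.1%, and CCAAT was in 14 (35.0%) against 34.5%. CCGGAAG, the letters of an ETS family site, was in 12 (30.0%) against 7.05% of genes, and the 12 include Psmc3ip, the name match. It was in 0 of 13 core windows, 5 of 8 base windows, 3 of 6 lid windows, 2 of 5 activator windows and 1 of 6 assembly factor windows. CCAAT was in 7 of the 13 core windows. These 13 include Psmb11, which had no counts, and lack Psmb1, Psmb2 and Psmb7, which were lower in mLN. The sequences below are the core, base and lid windows holding TGANNNNGC whose genes had the smallest p in the edgeR test, and the window of Psme3, which was higher in mLN. They are given 5′ to 3′ on the gene's strand, up to the first annotated transcript start, with both motifs in capitals in either orientation.
Psma4 promoter, chr9:54950609-54950789, plus strand: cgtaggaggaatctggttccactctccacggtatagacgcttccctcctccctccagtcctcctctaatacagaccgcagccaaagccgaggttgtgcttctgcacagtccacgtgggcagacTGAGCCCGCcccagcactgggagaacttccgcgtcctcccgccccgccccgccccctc
Psmc6 promoter, chr14:45329574-45329787, plus strand: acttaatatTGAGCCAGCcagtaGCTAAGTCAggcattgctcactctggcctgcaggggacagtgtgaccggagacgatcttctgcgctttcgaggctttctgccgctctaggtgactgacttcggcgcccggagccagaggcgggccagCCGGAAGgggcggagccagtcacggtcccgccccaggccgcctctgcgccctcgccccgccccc
Psmd12 promoter, chr11:107479278-107479483, plus strand: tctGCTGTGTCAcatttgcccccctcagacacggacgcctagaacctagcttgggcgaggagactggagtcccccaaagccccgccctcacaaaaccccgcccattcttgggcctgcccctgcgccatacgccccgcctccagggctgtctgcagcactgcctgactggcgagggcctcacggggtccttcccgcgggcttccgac
Psme3 promoter, chr11:101315963-101316212, plus strand: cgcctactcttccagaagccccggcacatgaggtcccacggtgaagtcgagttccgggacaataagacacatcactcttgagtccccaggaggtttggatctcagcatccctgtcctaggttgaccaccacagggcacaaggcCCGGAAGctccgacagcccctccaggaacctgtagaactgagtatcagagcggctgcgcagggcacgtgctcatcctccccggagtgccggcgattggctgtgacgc
Exons of AY074887 on the opposite strand overlap those of Psma4, whose window holds 1 match of the loose element. The match starts 127 bases before the RefSeq start. Psmc6 has 2 such matches, at 241 and 227 bases before its start, and the ETS letters at 100. Psmd12 has 1 in the printed bases, at 247. Psme3 has none, and its ETS letters start at 107 bases before the start. A match is a description of the letters and not a binding site.

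The 20S core carried most of the lower calls. Of its 17 genes 15 were tested, 14 were lower in mLN, 0 were higher and Psmb10 was not called. Over all tested genes, 13.5% were lower and 16.1% higher. The median log2 fold change of the tested core genes was -0.40. The core summed to 1432 ± 17.2 CPM in the spleen libraries and 1085 ± 17.2 CPM in the mLN libraries (SD, n = 3 each), 75.8% of spleen. In summed TPM it was 2142 ± 26.0 and 1987 ± 50.7, or 92.8% of spleen, with no overlap between the tissues on either scale. After the length trend was removed, 7 of the 15 were lower, against 8.94% of all tested genes, and the median was -0.17. On median-centred TPM 11 were lower, against 7.58% of all tested genes, with a median of -0.38.

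All 7 tested alpha genes, whose ring forms the gate of the barrel, were lower in mLN, against 13.5% of all tested genes. The alpha genes had log2 fold changes from -0.57 to -0.27. Psma1 (ENSMUSG00000030751, GRCm38 chr7:114264606-114276118) had the smallest p of them. Its level was 90.3, 80.0 and 68.1 CPM in the spleen libraries and 53.0, 51.9 and 55.8 CPM in the mLN libraries. Every mLN library was below every spleen library, and the log2 fold change was -0.57 ± 0.10 (SE, edgeR adjusted p = 0.000141). Its spleen libraries spread more widely than its mLN libraries. Psma7, an alpha subunit known to dock assembly factors and regulators, changed least. It stood at 98.0, 101 and 106 CPM in spleen and at 78.6, 87.7 and 86.7 CPM in mLN, without overlap. The log2 fold change was -0.27 ± 0.08 (SE, edgeR adjusted p = 0.0137), and it was -0.018 after the length trend was removed. Without mLN library 1 the adjusted p of Psma7 was 0.0627. Psma2, Psma3, Psma4, Psma5 and Psma6 lay between, at 71.6% to 81.9% of their spleen means.

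The 4 structural beta genes were all lower, at 60.0% to 77.6% of spleen, against 13.5% lower over all tested genes. Psmb2 (ENSMUSG00000028837, chr4:126677630-126709714), a non-catalytic beta-ring subunit, had the largest fold change of all tested members. It was at 36.7, 41.2 and 35.0 CPM in spleen and at 23.9, 23.7 and 20.3 CPM in mLN. The libraries of the 2 tissues were well apart, and the log2 fold change was -0.74 ± 0.12 (SE, edgeR adjusted p = 8.66e-05). In TPM the order held, with 76.0, 86.5 and 74.7 in spleen and 60.7, 62.0 and 48.7 in mLN. Psmb1, Psmb3 and Psmb4 had log2 fold changes from -0.40 to -0.37, and of these Psmb1 alone was lower after the length trend was removed (-0.30 ± 0.07, SE).

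Among the catalytic genes, the 3 constitutive ones were lower, beside 13.5% of all tested genes. The call of the inducible Psmb10 depended on the fit. Psmb5, which carries the chymotrypsin-like site, was at 66.2, 72.3 and 69.3 CPM in spleen and at 53.2, 50.5 and 56.6 CPM in mLN. Psmb6, which carries the caspase-like site, was at 73.8, 76.9 and 75.5 CPM in spleen and at 57.3, 50.2 and 58.8 CPM in mLN. Psmb7, which carries the trypsin-like site, was at 79.7, 73.6 and 73.0 CPM in spleen and at 55.4, 54.8 and 51.7 CPM in mLN. None of the 3 genes had overlapping tissues. Their log2 fold changes were -0.37 ± 0.09 for Psmb5, -0.44 ± 0.09 for Psmb6 and -0.48 ± 0.09 for Psmb7 (SE), with edgeR adjusted p of 0.00238, 0.00057 and 0.000175. With the length trend removed, Psmb7 was still lower (-0.28 ± 0.09, SE, edgeR adjusted p = 0.0216), while Psmb5 (-0.11) and Psmb6 (-0.15) no longer passed.

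Psmb10, the interferon-inducible subunit that takes the place of Psmb7, was at 121, 122 and 148 CPM in spleen and at 99.9, 101 and 129 CPM in mLN. In each tissue 1 library stood above the other 2, so the tissues overlapped. Its log2 fold change was -0.24 ± 0.10 (SE, edgeR adjusted p = 0.081), and 0.014 after the length trend was removed. With a GC trend removed it was called lower (-0.42, edgeR adjusted p = 4.5e-06), against -0.50 for Psmb5, -0.42 for Psmb6 and -0.33 for Psmb7 in that fit. In TPM, Psmb10 exceeded Psmb7 by a ratio of 2.52 ± 0.37 in the spleen and 2.92 ± 0.47 in the mLN libraries (SD, n = 3 each), a difference within the spread of the libraries. The other inducible subunits were left out of the members and had log2 fold changes below 0 as well. Psmb8, the partner of Psmb5 in this exchange, was at 307, 329 and 343 CPM in spleen and at 297, 293 and 314 CPM in mLN, which overlap (log2 fold change -0.11 ± 0.06, SE, edgeR adjusted p = 0.169). Psmb9, which replaces Psmb6, was at 144, 150 and 176 CPM in spleen and at 135, 132 and 139 CPM in mLN. It was lower in mLN (-0.21 ± 0.08, SE, edgeR adjusted p = 0.0457), but not after the length trend was removed (-0.041). The ratio of Psmb8 to Psmb5 in TPM was 3.72, 3.61 and 3.95 in the spleen libraries and 4.45, 4.56 and 4.53 in the mLN libraries, and these do not overlap. For Psmb9 to Psmb6 it was 0.958, 0.941 and 1.11 in spleen and 1.12, 1.24 and 1.14 in mLN, which do not overlap either.

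In the 19S base, 4 of 9 tested genes were lower and 0 were higher, against 13.5% and 16.1% of all tested genes. Its median log2 fold change was -0.23. Its summed level was 84.8% of spleen in CPM and 100.7% in TPM, which is not centred. On median-centred TPM its median was -0.20. The calls were all among the ATPases, of which Psmc1, Psmc2, Psmc3 and Psmc6 were lower and Psmc4 and Psmc5 were not called, although all 6 had every mLN library below every spleen library. Psmc1, an ATPase of the ring that threads substrates into the core, had the smallest p. It was at 138, 135 and 128 CPM in spleen and at 111, 104 and 90.8 CPM in mLN. The tissues were apart, with a log2 fold change of -0.39 ± 0.08 (SE, edgeR adjusted p = 0.000989). Psmc1 and Psmc2 kept their call when the length trend was removed, and Psmc6 lost its call without spleen library 1 (edgeR adjusted p = 0.0593).

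The non-ATPase base genes Psmd1, Psmd2 and Psmd4 were not called, at 90.0% to 92.0% of spleen. Psmd2, a large scaffold that receives ubiquitin-like domains of shuttle proteins, had the smallest p of them. It was at 211, 219 and 205 CPM in spleen and at 198, 191 and 194 CPM in mLN, without overlap, and its log2 fold change was -0.13 ± 0.06 (SE, edgeR adjusted p = 0.142). In TPM its order was opposite, with 96.6 to 103 in spleen and 110 to 119 in mLN. Its log2 fold change on that uncentred scale was 0.21, the same as the median of all tested genes. On median-centred TPM it was -0.040 and not called (limma adjusted p = 0.749). Psmd4, the base's ubiquitin receptor, overlapped between the tissues on both scales.

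The lid held calls in both directions. Of its 8 genes, Psmd6, Psmd7, Psmd8, Psmd13 and Psmd14 were lower, Psmd3 was higher, and Psmd11 and Psmd12 were not called. Over all tested genes, 13.5% were lower and 16.1% higher. The lid's median was -0.28 and its summed level 89.3% of spleen in CPM and 106.5% in TPM, which is not centred. On median-centred TPM its median was -0.23. Psmd13, a scaffold subunit of the lid, was at 82.4, 85.4 and 81.2 CPM in spleen and at 63.4, 62.0 and 63.0 CPM in mLN. The 3 libraries of each tissue lay close together, and the log2 fold change was -0.40 ± 0.08 (SE, edgeR adjusted p = 0.000662). Psmd14, the enzyme that cuts the ubiquitin chain off the substrate, was at 72.7, 73.6 and 72.0 CPM in spleen and at 63.4, 57.5 and 57.4 CPM in mLN. It did not overlap, with a log2 fold change of -0.29 ± 0.08 (SE, edgeR adjusted p = 0.0113), and it was not called after removal of the length trend (-0.15) or of a GC trend. The calls of Psmd7 and Psmd8, at 81.6% and 83.3% of spleen, were lost in several of the fits with 1 library left out, and the tissues overlapped for Psmd7. Psmd7 lost its call without spleen library 3 (edgeR adjusted p = 0.0959), mLN library 1 (0.0905) or mLN library 3 (0.0765), with log2 fold changes from -0.26 to -0.23. Psmd8 lost it without spleen library 1 (edgeR adjusted p = 0.112), mLN library 2 (0.0835) or mLN library 3 (0.098), with log2 fold changes from -0.25 to -0.21.

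Psmd3 (ENSMUSG00000017221, chr11:98682554-98695979), another scaffold subunit of the lid, was the member with the largest increase. It was at 62.2, 65.2 and 80.5 CPM in spleen and at 90.1, 94.3 and 96.0 CPM in mLN. Every mLN library was above every spleen library, with spleen library 3 the nearest to them. The log2 fold change was 0.43 ± 0.09 (SE, edgeR adjusted p = 0.00143), and 0.47 ± 0.09 with the length trend removed. In TPM it was at 39.8, 38.8 and 49.7 in spleen and at 70.2, 72.0 and 69.7 in mLN. Its opposite-strand neighbour with shared exons is Gm12356.

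The activators had 1 call in each direction. Of 5 tested, Psme2 was lower, Psme3 was higher and Psme1, Psme2b and Psme4 were not called. Over all tested genes, 13.5% were lower and 16.1% higher, so these counts do not set the activators apart. Their median was -0.050 and their summed level 96.4% of spleen in CPM and 117.5% in TPM, which is not centred. On uncentred log2 TPM the median of all tested genes was itself 0.21. On median-centred TPM the activators' median was -0.0017, with 0 called lower and 0 higher. Psme1 and Psme2 encode the subunits of the interferon-inducible cap PA28. Psme1 was at 270, 288 and 279 CPM in spleen and at 256, 246 and 254 CPM in mLN, without overlap but not called (log2 fold change -0.15 ± 0.06, SE, edgeR adjusted p = 0.0685). With a GC trend removed it was called lower (-0.16, edgeR adjusted p = 0.0105). Psme2 was at 225, 233 and 210 CPM in spleen and at 200, 178 and 185 CPM in mLN. It was called (-0.24 ± 0.07, SE, edgeR adjusted p = 0.00865), but the direction turned with the length trend removed (0.035), and the call was lost without spleen library 2 (edgeR adjusted p = 0.0582) or mLN library 2 (0.0515). In TPM, Psme1 was higher in every mLN library, at 419, 430 and 422 in spleen and 466, 479 and 459 in mLN, while on median-centred TPM its log2 fold change was -0.10 and not called. Psme2b, a near-identical copy of Psme2, was at 50.5 to 61.5 CPM in spleen and 51.3 to 54.4 CPM in mLN, and how reads were shared between the 2 copies is uncertain.

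Psme3 (ENSMUSG00000078652, chr11:101316213-101323537) encodes the nuclear cap PA28 gamma. It was at 121, 110 and 111 CPM in spleen and at 147, 152 and 125 CPM in mLN. The lowest mLN library was close to the highest spleen library, and the groups did not overlap. The log2 fold change was 0.31 ± 0.08 (SE, edgeR adjusted p = 0.00554), and 0.32 ± 0.08 with the length trend removed. Without spleen library 2 the adjusted p was 0.0517, and on median-centred TPM it was 0.0606. The ratio of Psme1 to Psme3 in TPM was 6.32, 7.78 and 7.57 in the spleen libraries and 4.29, 5.05 and 5.70 in the mLN libraries, so that it was lower in mLN without overlap. Psme4, the large nuclear cap PA200, was at 84.4, 92.6 and 74.6 CPM in spleen and at 96.3, 91.9 and 89.2 CPM in mLN. These overlap, and the log2 fold change was 0.14 ± 0.09 (SE, edgeR adjusted p = 0.258), or -0.052 with the length trend removed. A GC trend removed in its place gave 0.36 and a call. Psmf1, which encodes the proteasome inhibitor PI31, was at 31.6, 34.4 and 35.2 CPM in spleen and at 34.2, 33.2 and 34.7 CPM in mLN, with a log2 fold change of 0.012 ± 0.11 (SE, edgeR adjusted p = 0.95).

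Of the 7 assembly factors, 1 was lower, 0 were higher and the median was -0.10, beside 13.5% lower and 16.1% higher over all tested genes. The core chaperones Psmg1, Psmg2, Psmg3 and Psmg4 were not called and their tissues overlapped. Psmg2 had the smallest p of these, at 25.9, 29.2 and 23.9 CPM in spleen and at 26.2, 20.8 and 17.5 CPM in mLN (log2 fold change -0.30 ± 0.15, SE, edgeR adjusted p = 0.143). Psmd5, a chaperone of the base, was the one called. It was at 60.0, 70.1 and 57.1 CPM in spleen and at 48.4, 54.1 and 45.4 CPM in mLN, without overlap. The log2 fold change was -0.34 ± 0.10 (SE, edgeR adjusted p = 0.0124) and -0.36 ± 0.10 with the length trend removed, and without spleen library 2 the adjusted p was 0.102. The other base chaperones, Psmd9 and Psmd10, were not called, at 98.8% and 87.0% of spleen. Psmc3ip, the name match, was close to the limit of the test at 4.52, 1.82 and 5.91 CPM in spleen and 2.88, 2.77 and 1.93 CPM in mLN. Its log2 fold change of -0.69 ± 0.41 (SE, edgeR adjusted p = 0.224) was not called, and without it the members' counts of calls stayed at 25 and 2.

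Levels of different genes were compared per length, in TPM. The highest members were Psme2 at a mean of 467 TPM over the 6 libraries and Psme1 at 446, both subunits of PA28. They were followed by Psmb10 at 249, Psmb4 at 209 and Psmb3 at 191. Of the genes left out by the rule, Psmb8 was above all of these at 522 TPM, and Psmb9 was at 175. The 3 constitutive catalytic genes were lower, at 162 for Psmb6, 127 for Psmb5 and 92.4 for Psmb7. The lowest tested genes were Psmc3ip at 4.88, Psmd9 at 10.8 and Psmg3 at 18.4, with Psme4 at 20.9 and Psmf1 at 22.2 above them. Tested core genes among the members had means between 62.5 and 249 TPM. Base genes had means between 35.5 and 169, lid genes between 51.7 and 111 and assembly factors between 10.8 and 47.0. In this order, 42 of the 45 neighbouring pairs overlapped in at least 1 tissue, so most neighbours did not differ beyond the spread of their libraries. Psme1 and Psmb10, neighbours near the top, did not overlap.

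**Figure D4:**
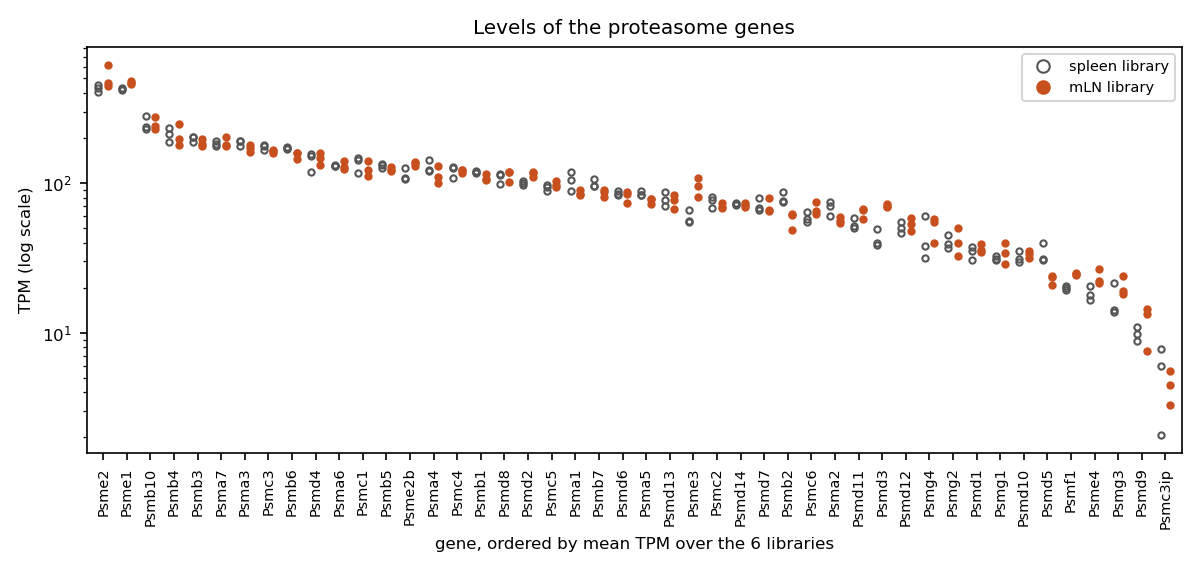
TPM of each tested proteasome gene in every library on a log scale, ordered by the mean over the 6 libraries, with spleen as open and mLN as filled circles. Psme2 and Psme1 lie above 400 TPM and all other genes below 300, and the mLN points of Psme3 and Psmd3 lie above their spleen points.

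Genes that act with the proteasome moved in both directions. The counts of their lists stand beside the 13.5% lower and 16.1% higher over all tested genes. Of 12 subunits and partners outside the naming pattern 11 were found, 3 were lower, 1 was higher and the median was -0.12. Pomp, which matures the core's beta ring, was at 62.6, 59.6 and 59.6 CPM in spleen and at 42.7, 37.3 and 45.8 CPM in mLN (log2 fold change -0.53 ± 0.10, SE, edgeR adjusted p = 0.000301). Sem1, a small lid subunit, was at 60.3, 52.4 and 50.3 CPM in spleen and at 38.1, 34.7 and 41.8 CPM in mLN (-0.50 ± 0.11, SE, edgeR adjusted p = 0.000987). Both were lower in every mLN library and stayed lower with the length trend removed. Txnl1, a redox protein bound to the regulatory particle, was at 47.0, 48.3 and 47.6 CPM in spleen and at 36.7, 36.9 and 38.1 CPM in mLN. It fell by 0.36 on the log2 scale, and was not called with the length trend removed. Adrm1, the other ubiquitin receptor of the base, was at 59.3, 68.5 and 72.6 CPM in spleen and at 82.1, 79.9 and 84.6 CPM in mLN. It was higher in mLN without overlap (0.30 ± 0.09, SE, edgeR adjusted p = 0.0143), and was not called with a GC trend removed (0.16, edgeR adjusted p = 0.111) or on median-centred TPM (0.31, limma adjusted p = 0.128). Pomp was not called on median-centred TPM (-0.58, limma adjusted p = 0.173), nor Txnl1 with the GC trend removed (-0.14, edgeR adjusted p = 0.295).

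Of 10 regulators of proteasome transcription, 4 were higher and 2 were lower, with a median of 0.19. Nfe2l1, the factor named above, was at 78.5, 86.6 and 83.6 CPM in spleen and at 112, 113 and 109 CPM in mLN. It rose without overlap (log2 fold change 0.42 ± 0.08, SE, edgeR adjusted p = 0.000309), and it is known to be cut into its active form by the protease Ddi2. Ddi2 was at 84.3, 102 and 98.9 CPM in spleen and at 127, 142 and 143 CPM in mLN (0.53 ± 0.08, SE, edgeR adjusted p = 5.49e-05). Ngly1, the enzyme that strips its sugars, was lower, at 98.3, 97.7 and 95.2 CPM in spleen and 71.6, 77.2 and 76.2 CPM in mLN. Stat3, a cytokine-driven factor, was at 217, 213 and 211 CPM in spleen and at 357, 371 and 368 CPM in mLN (0.77 ± 0.06, SE, edgeR adjusted p = 7.01e-09). Mafk, a small partner of Nfe2l1 on DNA, was at 36.8, 39.1 and 51.8 CPM in spleen and at 62.4, 67.0 and 72.2 CPM in mLN (0.66 ± 0.11, SE, edgeR adjusted p = 0.000149). Nfe2l2, a related factor, was lower (-0.27 ± 0.08, SE, edgeR adjusted p = 0.0198). All 6 kept their call with the length trend removed, but 3 did not in other fits. With a GC trend removed, Nfe2l2 (edgeR adjusted p = 0.251) and Ngly1 (0.0517) were not called. On median-centred TPM, Nfe2l1 was at 0.20 (limma adjusted p = 0.253), and Nfe2l2 (0.119) and Ngly1 (0.0667) were not called either.

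Among genes of ubiquitin supply, Rps27a encodes ubiquitin fused to a ribosomal protein. It was at 1073 to 1211 CPM in spleen and 766 to 854 CPM in mLN, and fell by 0.54 on the log2 scale (edgeR adjusted p = 1.07e-06). Ubb, a polyubiquitin gene, fell by 0.40 (edgeR adjusted p = 7.62e-05) and did not overlap either. Uba1, an activating enzyme, was higher in mLN (0.17 ± 0.06, SE, edgeR adjusted p = 0.0306), and was not called after the length trend was removed or on median-centred TPM. Of 10 shuttle and segregase genes 4 were higher and 2 lower, and with the length trend removed 5 were higher and 0 lower, against 14.6% and 8.94% of all genes. Ddi2 is in this list and in that of the transcription regulators, so it is counted as higher in both. Ubqln1, a shuttle for ubiquitinated proteins, was at 125, 122 and 115 CPM in spleen and at 192, 175 and 178 CPM in mLN (0.59 ± 0.07, SE, edgeR adjusted p = 2.25e-06). Nploc4, a cofactor of the segregase Vcp, was at 47.2, 52.4 and 52.4 CPM in spleen and at 63.3, 68.3 and 62.5 CPM in mLN (0.35 ± 0.09, SE, edgeR adjusted p = 0.00497). Nsfl1c, another cofactor of Vcp, was lower, at 101, 102 and 98.0 CPM in spleen and 83.3, 73.8 and 86.3 CPM in mLN (-0.31 ± 0.08, SE, edgeR adjusted p = 0.00759). It was not called with the length trend removed, and neither it (limma adjusted p = 0.143) nor Nploc4 (0.294) was called on median-centred TPM.

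**Figure D5:**
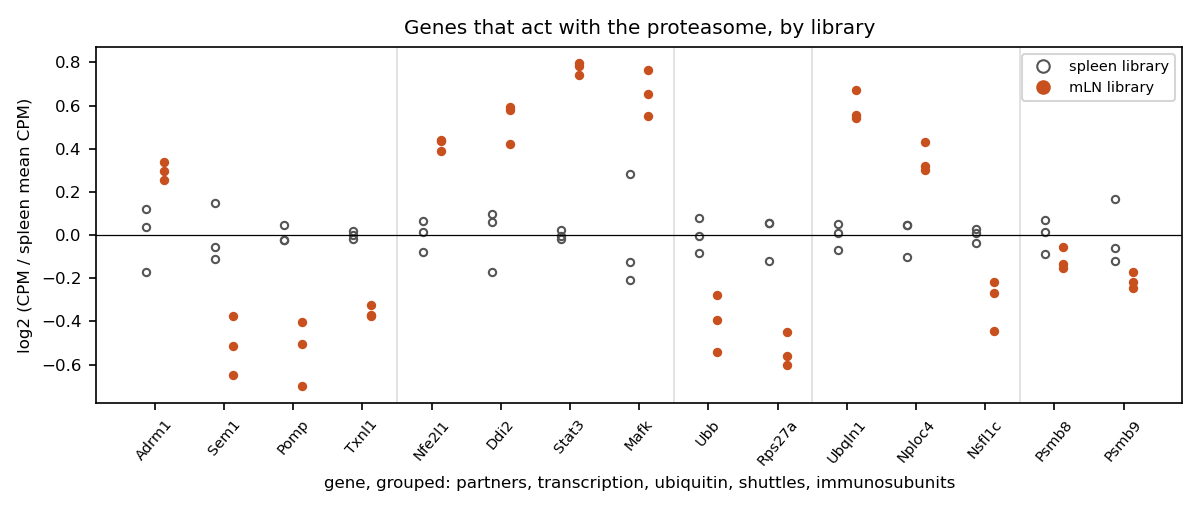
Log2 ratio of each library's CPM to the spleen mean for named genes outside the members, with spleen as open and mLN as filled circles. Pomp, Sem1, Txnl1, Nsfl1c and the ubiquitin genes Ubb and Rps27a lie below their spleen points, and Adrm1, Nfe2l1, Ddi2, Stat3, Mafk, Ubqln1 and Nploc4 lie above them.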

How the data were processed

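Per the submitters' processing notes, the authors used STAR, RSEM and mm10, with annotation release, strand setting and tool versions not given in the sources used here. Expected counts, as deposited, estimate the reads of each gene and are not normalized, per the file headers. TPM, as deposited, is scaled by effective length to a fixed total per library, and FPKM, as deposited, by length and depth. FPKM was not used. Of 55487 identifiers, 55141 were given a symbol. Biotypes, coordinates and GC content came from GENCODE vM21 (GRCm38), which held 55227 of them.

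Counts were rounded and passed through edgeR's filterByExpr, which left 12486 genes, and CPM values are scaled by TMM factors. Tissues were compared with edgeR's robust quasi-likelihood F test, two-sided, with no term but tissue. Adjustment was by Benjamini-Hochberg over all tested genes, with a threshold of 0.05. A standard error is the absolute log2 fold change divided by the square root of its F. Alternatives were RLE or upper-quartile factors, limma-voom, DESeq2, limma on log2 TPM plus 1 or plus 0.1 (centred per library or, for plus 1, not), no filter beyond 1 count, at least 50 counts, a threshold of 0.01, the replicate number as a block, removal of a loess trend (span 0.3) on length or GC content, and each library left out. The fit was tried on simulated data. Replicate pairs had chi-square values of 5.60 to 11.9 per degree of freedom, above sampling noise. Same-numbered libraries of the tissues had correlations of deviations of 0.0223, 0.0023 and 0.0652 and were not treated as pairs.

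The members and gene lists were chosen with earlier results of these data known. By the rule for named genes, library values are given for the catalytic genes, Psma7, Psmd14, the activators, Psmf1, the smallest p in each role, members called higher, the 3 largest fold changes in each direction, and up to 4 called genes of each other list, smallest p first. Other members are given by range and count. A few genes of the other lists are not reported here. Ngly1, Nfe2l2 and Uba1 were named after their values were seen. Software was R 4.3.3 with edgeR 4.0.16, limma 3.58.1 and DESeq2 1.42.0, and Python 3.11.15 with pandas 2.3.3, numpy 2.4.6 and matplotlib 3.10.9.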

Additional observations from a re-analysis of the deposited data

How the results depend on the processing

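RLE factors, DESeq2, limma-voom and both count filters left every count of calls within 1.5 times. Upper-quartile factors moved the members' median log2 fold change to -0.34, removal of a GC trend to -0.21, and a threshold of 0.01 left 1069 genes lower. Uncentred log2 TPM gave 384 genes and 2 members lower and a median of -0.00055. Centred on the median, TPM plus 1 gave 798 genes higher, 947 lower, 1 member higher, 16 lower and a median of -0.25. With plus 0.1 these were 768, 929, 1, 16 and -0.26. Removal of the length trend gave 1116 genes and 11 members lower and a median of -0.10. The cause was not tested. Leaving out each library in turn gave 1 to 2 members higher. The fit with the replicate block called 31 members lower and 2 higher. Calls over all genes rose as well, to 2140 lower and 2566 higher, from 1689 and 2010 in the main fit. Not every library deviated most like the one with its own number in the other tissue. Several log2 fold changes turned in direction. On uncentred TPM they were Psme1 0.14, Psme2 0.22, Psme2b 0.24, Psmd10 0.068, Psmd9 0.20, Psmg1 0.11, Psmg2 0.0014, Psmg3 0.31, Psmg4 0.27, Psmc5 0.077, Psmc6 0.19, Psmd1 0.081, Psmd2 0.21, Psmd4 0.051, Psma6 0.0026, Psma7 0.020, Psmd11 0.25, Psmd12 0.071 and Psmd8 0.056. With the length trend removed they were Psme1 0.076, Psme2 0.035, Psme2b 0.23, Psme4 -0.052, Psmd9 0.027, Psmg1 0.12, Psmg3 0.21, Psmg4 0.30, Psmd4 0.063, Psmb10 0.014 and Psmd11 0.016. With a GC trend removed they were Psme2b 0.040, Psmd9 0.025 and Psmd11 0.063. On centred TPM plus 1 they were Psmg3 0.060, Psmg4 0.020 and Psmd11 0.0023, and with plus 0.1 Psmg3 0.063 and Psmg4 0.013. Upper-quartile factors gave Psmf1 -0.034. Over the fits without 1 library, the ranges that cross 0 were -0.11 to 0.034 for Psme2b, -0.30 to 0.15 for Psmd9, -0.24 to 0.0083 for Psmg1, -0.25 to 0.11 for Psmg3, -0.28 to 0.19 for Psmg4 and -0.037 to 0.032 for Psmf1. Counts of 3 per library bound what could be detected for Psma8 and Psmb11.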
